A study of Rattus norvegicus with 5 samples.

Results

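The genes described here encode the enzymes of the first phase of drug and foreign-chemical metabolism in liver: cytochrome P450 families 1 to 4 (Cyp1 to Cyp4), the flavin-containing monooxygenases (Fmo) and the epoxide hydrolases Ephx1 and Ephx2. They were taken by symbol from the array's annotation: every probe set with a single symbol that begins with Cyp1, Cyp2, Cyp3 or Cyp4 followed by a letter, or Fmo followed by a digit, or that is Ephx1 or Ephx2. This gave 32 probe sets, 1 for each of 32 genes, of 8797 probe sets and 7589 gene symbols on the table. There were 3 in Cyp1, 15 in Cyp2, 3 in Cyp3, 6 in Cyp4, 3 Fmo and 2 epoxide hydrolase probe sets. No filter on low values was applied, so every one of the 32 was tested. RefSeq gene records (assembly GRCr8) placed all 32 genes, and 0 of them lie on chromosome 4.

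Liver RNA came from 4-month-old male rats on standard chow, from PD, the polydactylous rat strain, and from PD.SHR4 (PD.SHR4a in the series text), a congenic strain with a chromosome 4 segment of the spontaneously hypertensive rat in a PD background. The series title concerns Cd36-deficient congenic strains and their glucose tolerance and metabolic profile. Each strain was represented by the pooled cDNA of 8 rats, hybridised to 3 arrays for PD and 2 for PD.SHR4. A congenic segment carries every gene within it, so a difference between the strains is not a measure of any 1 of them, and no label says that arrays of 1 strain hold RNA of different animals. The p-values therefore measure the spread between arrays, which may be technical.

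Microsomal P450s insert an oxygen atom into fat-soluble substrates, with electrons passed to their haem iron by the reductase Por and in part by cytochrome b5. Families Cyp1 to Cyp3 handle mainly drugs, steroids and pollutants, while many Cyp4 enzymes and the Cyp2j enzymes act on fatty acids such as arachidonic acid. Their genes lie in clusters of close paralogues, several are under the control of the xenobiotic receptors CAR (Nr1i3) and PXR (Nr1i2), of the aryl hydrocarbon receptor (Ahr) or of Ppara, and in rats some are made mainly by 1 sex under growth hormone. Fmo enzymes oxidise nitrogen and sulfur in drugs, and epoxide hydrolases open the epoxides that P450s make.

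All values are log2 expression values (RMA), and differences are PD.SHR4 minus PD on that scale with the standard error (SE) of the moderated limma fit. A gene is said to have risen or fallen only where its limma p, adjusted by Benjamini-Hochberg over all 8797 probe sets, was under 0.05. Levels of different probe sets were not compared. Array medians lay between 5.21 and 5.38 and lower quartiles between 2.84 and 2.93. Of all probe sets, 24 rose and 58 fell in PD.SHR4; with each array centred on its median the split was 41 and 59, and with quantile normalisation repeated it was 47 and 65. Leaving out PD array 1 gave 28 calls, PD array 2 55 and PD array 3 18, and leaving out either PD.SHR4 array gave 0 calls in limma, with 737 or 710 probe sets at an unadjusted p under 0.05.

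A single member, Cyp2j4, rose in PD.SHR4 and none fell, while 31 did not pass the test. That is 1 of 32 against 0.273% of all probe sets that rose, and 0 of 32 against 0.659% that fell. The values nevertheless lay mostly on 1 side: 24 of the 32 differences were above 0 and 8 below, with a median of 0.19, beside 4400 above and 4397 below and a median of 0.00020 over all probe sets. After centring each array on its median, 27 were above 0 and 5 below. Without the 3 Cyp3a probe sets, 21 of 29 were above 0 and the median was 0.15. Array by array, the members' median deviation from the PD mean was -0.066, 0.14 and -0.056 on PD arrays 1, 2 and 3. On PD.SHR4 arrays 1 and 2 it was 0.20 and 0.19, so PD array 2 lay nearer to these than to the other PD arrays. In 14 members both PD.SHR4 arrays were above all 3 PD arrays (14.8% of all probe sets) and in 0 were both below (17.1%). A difference of at least 1.5-fold upward was measured in 6 members (2.89% of all probe sets) and of at least 1.5-fold downward in 0 (4.80%). At an unadjusted p under 0.05 there were 10 members with higher values in PD.SHR4 (5.84% of all probe sets) and 0 with lower values (7.92%). The differences ran from -0.21 for Cyp2f4 to 1.74 for Cyp3a2.

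**Figure D1:**
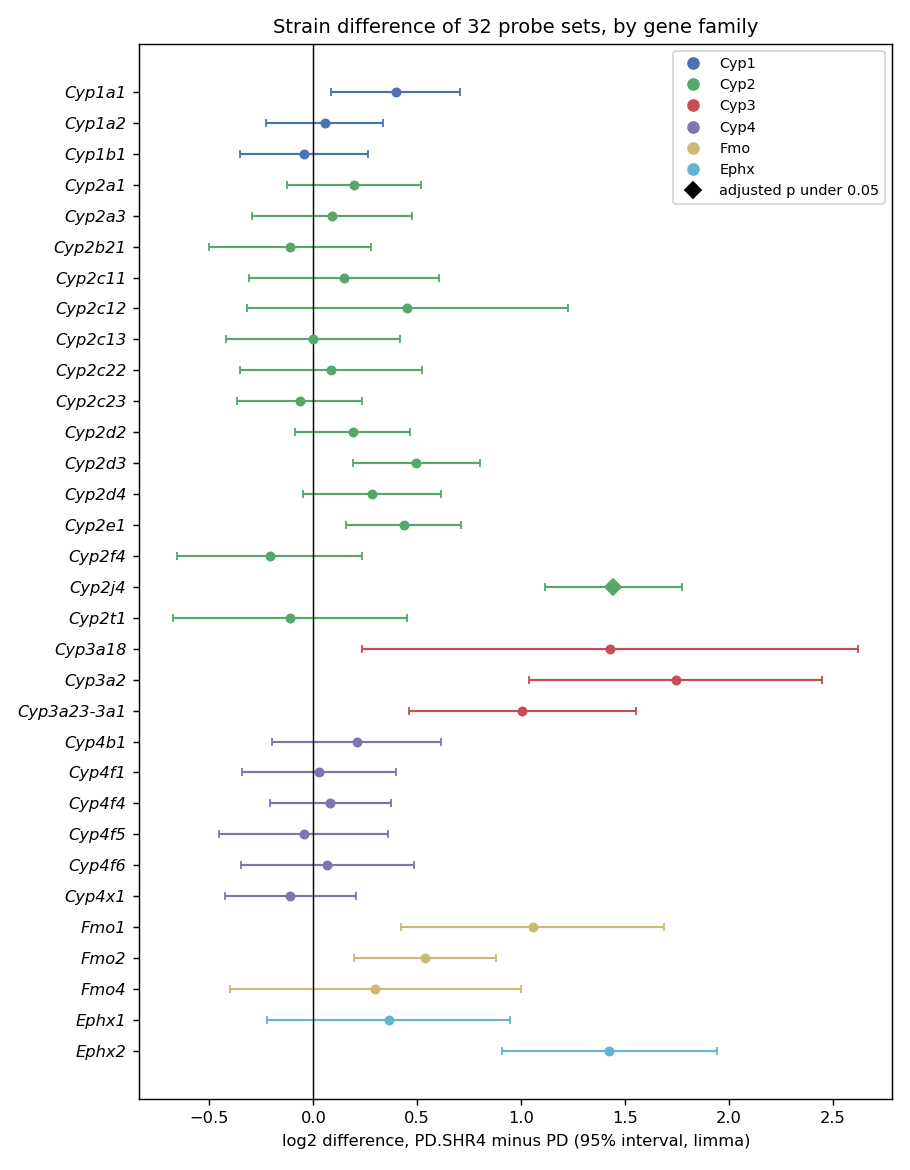
Log2 difference (PD.SHR4 minus PD) of each of the 32 probe sets with its 95% interval from limma, coloured by family; the diamond marks the adjusted p under 0.05. Cyp2j4, the 3 Cyp3a probe sets, Fmo1 and Ephx2 stand furthest from 0, at 1.01 to 1.74, and the lowest value is -0.21 for Cyp2f4.

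Cyp2j4, an epoxygenase of arachidonic acid in the Cyp2j subfamily, rose 2.72-fold in PD.SHR4 (95% interval 2.16 to 3.42). It measured 7.89, 8.06 and 7.77 on PD arrays 1, 2 and 3 and 9.30 and 9.40 on PD.SHR4 arrays 1 and 2. Both congenic arrays were above every PD array, and the gap between the strains was larger than the range within either. The log2 difference was 1.44 ± 0.13 (SE; limma adjusted p = 0.0236). Across 11 alternative fits the value stayed between 1.38 and 1.55 while the limma adjusted p ranged from 0.00249 to 0.294. The call was lost when PD array 1 (limma adjusted p = 0.0613), PD array 3 (0.0730), PD.SHR4 array 1 (0.230) or PD.SHR4 array 2 (0.294) was left out.

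The paralogue Cyp2j3 has no probe set of its own here. A second probe set is assigned by the annotation to both Cyp2j3 and Cyp2j4 and so cannot be read as either gene. It measured 9.25, 9.91 and 9.45 in PD and 9.73 and 9.98 in PD.SHR4, with overlapping arrays. Its log2 difference was 0.32 ± 0.22 (SE; limma adjusted p = 0.625), beside 1.44 for the probe set assigned to Cyp2j4 alone. The difference between these probe sets was not tested.

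The 250 bases upstream of the RefSeq transcription start of Cyp2j4 are shown because it is the member that rose. They lie on the minus strand at chr5:116323043-116323292 in GRCr8. Capitals mark the letters CACGTG, the E-box form that the clock activator pair Bmal1 and Clock is known to bind, found from 210 to 205 bases before the start.

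Cyp2j4: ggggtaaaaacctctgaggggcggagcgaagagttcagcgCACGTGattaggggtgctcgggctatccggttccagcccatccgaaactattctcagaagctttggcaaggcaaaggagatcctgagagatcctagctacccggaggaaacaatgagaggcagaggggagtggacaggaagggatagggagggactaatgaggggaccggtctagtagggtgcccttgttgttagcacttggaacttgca

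The Cyp3a enzymes, which hydroxylate steroids such as testosterone and oxidise a large share of drugs, had the largest differences among subfamilies with more than 1 measured member. All 3 measured Cyp3a genes had PD.SHR4 arrays above all PD arrays (14.8% of all probe sets), and none passed the test. Their median log2 difference was 1.43, and it was 0.92 without PD array 3 and 2.18 with array weights. PD array 3 was the lowest of the 5 arrays for each of the 3 probe sets.

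Cyp3a2, a testosterone hydroxylase made mainly by males, measured 10.74, 10.83 and 9.94 in PD and 12.17 and 12.32 in PD.SHR4. The lower congenic array was 1.34 log2 units above the highest PD array. Its value was 3.35-fold higher in PD.SHR4, a log2 difference of 1.74 ± 0.29 (SE; limma adjusted p = 0.0671). Without PD array 3 the difference was 1.46 (limma adjusted p = 0.0591). Cyp3a2 passed in 4 of the 11 alternative fits, and not without PD array 1 or 2 (limma adjusted p = 0.105 and 0.0754). 1 of the 4 was the fit with the replicate number as a block (limma adjusted p = 0.00617). Replicate 3 exists only in PD, so PD array 3 drops out of the difference there, which was again 1.46.

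Cyp3a18, another male-predominant member, measured 10.76, 10.76 and 9.23 in PD and 11.58 and 11.78 in PD.SHR4. The strains did not overlap, but PD array 3 lay further below the other PD arrays than these lay below the congenic ones. The log2 difference was 1.43 ± 0.48 (SE; limma adjusted p = 0.270) and 0.92 without PD array 3 (limma adjusted p = 0.149), and over the 11 alternatives that p was 0.0291 to 0.730.

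Cyp3a23-3a1, the Cyp3a form that glucocorticoids and PXR ligands are known to induce, measured 10.65, 10.89 and 10.19 in PD and 11.49 and 11.68 in PD.SHR4. The strains did not overlap. The log2 difference was 1.01 ± 0.22 (SE; limma adjusted p = 0.124), a 2.01-fold higher value, and 0.81 without PD array 3.

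These 3 genes share a cluster on chromosome 12, where Cyp3a2 and Cyp3a23-3a1 are direct neighbours in the RefSeq gene order. They are close paralogues. Probe sequences were not used here, so how far each probe set also binds transcripts of the others was not tested, and the 3 values may not be independent. The 250 bases upstream of each start (RefSeq, GRCr8) are printed to show how alike they are: Cyp3a2 and Cyp3a23-3a1, on the minus strand at chr12:14343858-14344107 and chr12:14398804-14399053, were 79.2% identical over a global alignment of 265 columns. They were 52.5% and 53.3% identical, in that order, to Cyp3a18, on the plus strand at chr12:13994062-13994311. For comparison, the sequence of Cyp2j4, from another family, was 43.1% to 45.2% identical to these 3 in the same alignment. Capitals mark AGGTCA, the half-site read by many nuclear receptors, at 150 to 145 bases before the start in Cyp3a2 and at 164 to 159 in Cyp3a23-3a1, and CACGTG at 103 to 98 in Cyp3a23-3a1.

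Cyp3a2: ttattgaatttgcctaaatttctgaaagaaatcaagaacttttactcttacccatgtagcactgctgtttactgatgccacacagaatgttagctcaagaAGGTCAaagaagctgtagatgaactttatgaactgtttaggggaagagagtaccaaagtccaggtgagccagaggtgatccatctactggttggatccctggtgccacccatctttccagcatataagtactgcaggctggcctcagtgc

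Cyp3a23-3a1: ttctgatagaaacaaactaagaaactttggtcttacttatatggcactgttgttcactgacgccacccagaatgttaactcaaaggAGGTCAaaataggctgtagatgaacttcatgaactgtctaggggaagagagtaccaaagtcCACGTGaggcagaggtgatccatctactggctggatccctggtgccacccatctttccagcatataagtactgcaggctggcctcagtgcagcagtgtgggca

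Cyp3a18: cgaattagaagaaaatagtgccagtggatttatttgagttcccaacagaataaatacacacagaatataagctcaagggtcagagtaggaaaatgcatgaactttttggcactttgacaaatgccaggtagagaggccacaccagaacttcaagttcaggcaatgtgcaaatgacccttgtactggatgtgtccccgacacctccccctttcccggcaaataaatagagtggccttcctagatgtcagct

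Upstream sequence of 250 bases was at hand for 28 of the 32 genes, and 5 short motifs were searched in it on both strands. AGGTCA was present for 9 of the 28 (Cyp1a2, Cyp2b21, Cyp2c11, Cyp2c22, Cyp2e1, Cyp3a2, Cyp3a23-3a1, Ephx1 and Fmo2), and in 14.1% of all 33469 promoter windows of the same length. CACGTG, which is its own reverse complement, was present for 2 (Cyp2j4 and Cyp3a23-3a1) and in 5.59% of all windows. The D-box form TTATGTAA, bound by Dbp and Nfil3, was present for 0 and in 0.828% of all windows. GCGTG, the core read by the aryl hydrocarbon receptor, was present for 6 (Cyp1b1, Cyp2t1, Cyp4f1, Cyp4f5, Cyp4f6 and Cyp4x1) and in 25.9% of all windows. The TATA box letters TATAAA were present for 9, among them Cyp2c11, Cyp2c12, Cyp2c13 and Cyp2c22, and in 12.9% of all windows. Holders of AGGTCA included members with log2 differences as far apart as 1.74 (Cyp3a2) and -0.11 (Cyp2b21). Cyp2b21 was dim, below the lower quartile of every array, and the next lowest holder was Cyp1a2 at 0.054. Whether a motif goes with the difference was not tested.

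Ephx2, the soluble epoxide hydrolase, turns the fatty acid epoxides that epoxygenases such as Cyp2j4 make into diols. It measured 7.54, 7.95 and 8.21 in PD and 9.29 and 9.35 in PD.SHR4. The lower congenic array was 1.08 log2 units above the highest PD array. The value was 2.68-fold higher (95% interval 1.87 to 3.84), a log2 difference of 1.42 ± 0.21 (SE; limma adjusted p = 0.0545), just outside the threshold. It passed in 6 of the 11 alternative fits, over which the difference was 1.19 to 1.58. 1 of the 6 was the replicate block, where PD array 3 drops out of the difference (limma adjusted p = 0.00525). Ephx2 did not pass without PD array 1, 2 or 3 (limma adjusted p = 0.0730, 0.0863 and 0.0803).

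Ephx1, the microsomal epoxide hydrolase that detoxifies epoxides of foreign chemicals, measured 11.54, 11.95 and 11.18 in PD and 11.83 and 12.01 in PD.SHR4. Here the strains overlapped, since PD array 2 lay between the congenic arrays. The log2 difference was 0.36 ± 0.24 (SE; limma adjusted p = 0.606), with a 95% interval from -0.22 to 0.95. Leaving out PD array 3 gave 0.17, leaving out PD array 2 gave 0.56, and array weights gave 0.66. Whether the 2 hydrolases differ in response was not tested.

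The Fmo probe sets had values above 0 in all 3 cases, and none passed. Fmo1, a main Fmo of rat liver, measured 8.53, 9.40 and 8.93 in PD and 9.93 and 10.08 in PD.SHR4. The congenic arrays were above the PD arrays, with a gap of 0.54 log2 units to PD array 2. The value was 2.08-fold higher, a log2 difference of 1.05 ± 0.26 (SE; limma adjusted p = 0.154).

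Fmo2, known chiefly as the lung form, measured 4.85, 4.60 and 4.64 in PD and 5.32 and 5.15 in PD.SHR4, again without overlap. Its log2 difference was 0.54 ± 0.14 (SE; limma adjusted p = 0.169). Fmo4, a minor form, measured 5.29, 6.21 and 5.44 in PD and 5.90 and 5.99 in PD.SHR4, with PD array 2 above both congenic arrays. Its log2 difference was 0.30 ± 0.28 (SE), and its 95% interval ran from -0.40 to 1.00. Leaving out PD array 1 gave 0.12, leaving out PD array 3 gave 0.19, and leaving out PD array 2 gave 0.58. The 3 genes are neighbours on chromosome 13 and are paralogues.

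**Figure D2:**
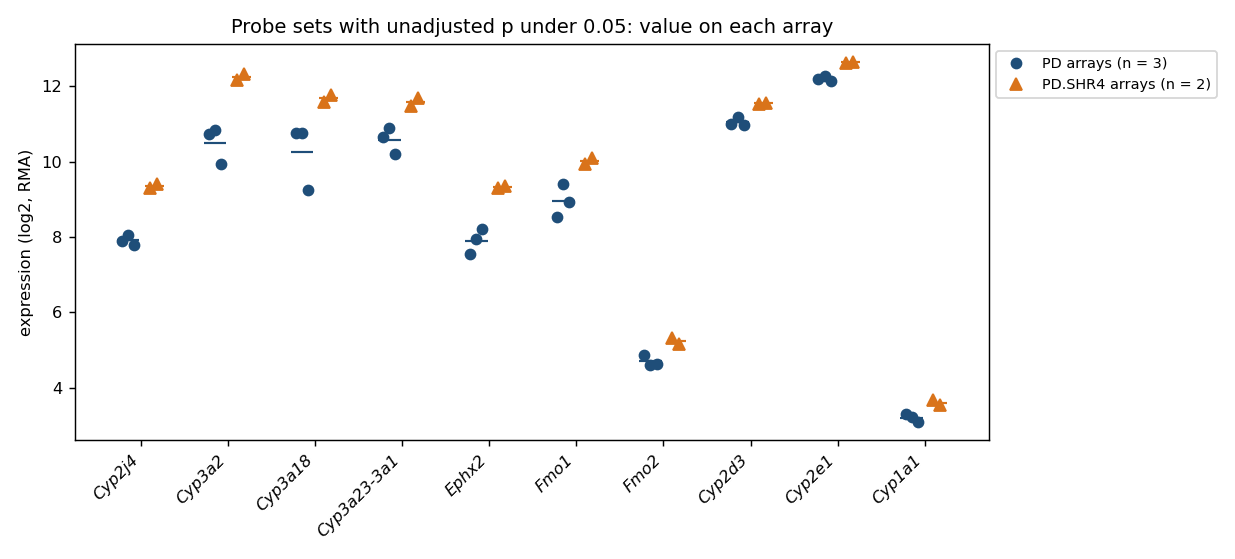
Log2 expression of the 10 probe sets with an unadjusted p under 0.05, as points for each PD array (circles, n = 3) and each PD.SHR4 array (triangles, n = 2) with strain means as bars. In all 10 both triangles lie above the 3 circles, and for each Cyp3a gene PD array 3, the third circle, is the lowest point, at 9.23 to 10.19.

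The Cyp2d subfamily, relatives of the human debrisoquine hydroxylase, had 3 probe sets with 1 symbol and none past the threshold. All 3 had PD.SHR4 arrays above all PD arrays (14.8% of all probe sets). Cyp2d3 measured 10.99, 11.18 and 10.97 in PD and 11.54 and 11.55 in PD.SHR4. The congenic arrays were almost equal and stood clear of the PD range, with a log2 difference of 0.50 ± 0.12 (SE; limma adjusted p = 0.164). Cyp2d4 measured 8.01, 8.30 and 8.17 in PD and 8.50 and 8.38 in PD.SHR4, a log2 difference of 0.28 ± 0.14 (SE). Cyp2d2 measured 11.92, 12.00 and 11.87 in PD and 12.10 and 12.13 in PD.SHR4, a log2 difference of 0.19 ± 0.11 (SE). All are close paralogues on chromosome 7. Of a pair of probe sets assigned jointly to Cyp2d1 and Cyp2d5, 1 had a log2 difference of 0.21 and the other of -0.0028.

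Cyp2e1, which oxidises ethanol, acetone and other small molecules in hepatocytes around the central vein, measured 12.18, 12.27 and 12.15 in PD and 12.63 and 12.64 in PD.SHR4. Both strains had narrow ranges that did not meet. The log2 difference was 0.43 ± 0.11 (SE; limma adjusted p = 0.169), a 1.35-fold higher value, and 0.41 to 0.49 over 11 alternative fits with limma adjusted p from 0.0222 to 0.640. It passed with an intensity trend and robust shrinkage and with array weights.

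The Cyp2c subfamily, which holds the main steroid hydroxylases of male rat liver, had values near 0 for all its members but Cyp2c12, and none passed. In all 5 members the arrays of the strains overlapped, and the median log2 difference was 0.086. Cyp2c11, the male form that growth hormone pulses maintain, measured 11.72, 12.18 and 11.67 in PD and 12.00 and 12.01 in PD.SHR4. Both congenic arrays fell within the PD range, with a log2 difference of 0.15 ± 0.19 (SE) and a 95% interval from -0.31 to 0.60. For Cyp2c13, also a male form, the interval was -0.42 to 0.41 around -0.0021. Cyp2c22 had 0.086 ± 0.18 (SE) and Cyp2c23, an arachidonic acid epoxygenase, -0.066 ± 0.12 (SE). A probe set assigned jointly to Cyp2c6 and Cyp2c6v1 is not among the members. It had -0.25 ± 0.21 (SE), with overlapping arrays.

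Cyp2c12, the form that female rats make, measured 5.28, 5.44 and 6.25 in PD and 5.91 and 6.30 in PD.SHR4. PD array 3 lay between the congenic arrays, and the difference of 0.45 ± 0.31 (SE) had a 95% interval from -0.32 to 1.22. Over the 11 alternative fits the value ran from 9.01e-04, with array weights, to 0.75, without PD array 3. Leaving out either PD array 1 or PD.SHR4 array 2 gave 0.26.

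Of the male-predominant P450s, 5 of 7 listed were measured. In 2 of these, the close paralogues Cyp3a2 and Cyp3a18, PD.SHR4 arrays were above all PD arrays (14.8% of all probe sets). Cyp2c11, Cyp2c13 and Cyp2c22 overlapped. Of 4 listed female-predominant forms 2 were measured: Cyp2c12 above, and Cyp2a1, a testosterone hydroxylase. Cyp2a1 measured 10.71, 10.97 and 10.75 in PD and 11.02 and 10.98 in PD.SHR4, a log2 difference of 0.19 ± 0.13 (SE). The lower congenic array was above PD array 2 by only 0.013 log2 units.

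The other Cyp2 members were Cyp2a3, Cyp2b21, Cyp2f4 and Cyp2t1, and in each the strains overlapped. Cyp2f4, counterpart of the mouse form found in airway cells and in periportal hepatocytes, measured 8.59, 9.08 and 8.96 in PD and 8.76 and 8.57 in PD.SHR4. Its log2 difference of -0.21 ± 0.18 (SE) was the lowest of the 32. Cyp2t1 had -0.11 ± 0.23 (SE). Cyp2a3, a form of the nasal and lung lining, and Cyp2b21, an extrahepatic relative of the barbiturate-induced Cyp2b forms, were dim: Cyp2b21 lay between 1.46 and 1.89, below the lower quartile of every array, and Cyp2a3 between 2.75 and 3.15. Their log2 differences were -0.11 ± 0.16 and 0.091 ± 0.16 (SE).

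In family Cyp1, Cyp1a2, which activates aromatic amines and is constitutive in liver, measured 12.04, 12.04 and 12.16 in PD and 12.09 and 12.17 in PD.SHR4. The strains overlapped, and the 95% interval of the difference was -0.23 to 0.34. Cyp1a1, which the aryl hydrocarbon receptor induces from a low base, measured 3.29, 3.23 and 3.09 in PD and 3.67 and 3.53 in PD.SHR4. Its arrays did not overlap at this low level, with a log2 difference of 0.40 ± 0.13 (SE; limma adjusted p = 0.249). Cyp1b1, made mainly outside the liver, lay between 2.59 and 2.82, dimmer than the lower quartile on all 5 arrays, with a log2 difference of -0.045 ± 0.13 (SE).

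The 6 Cyp4 members had small values and none passed. No Cyp4a probe set is among them, and the larger Cyp4a differences are given below. In 5 of the 6 members the strains overlapped. The median log2 difference was 0.047, with 4 of the 6 in Cyp4f. The leukotriene and fatty acid hydroxylase subfamily Cyp4f had differences of 0.026 ± 0.15 (SE) for Cyp4f1, 0.082 ± 0.12 for Cyp4f4, -0.046 ± 0.17 for Cyp4f5 and 0.068 ± 0.17 for Cyp4f6. Cyp4f4 was the 1 without overlap, at 10.04, 10.07 and 9.90 in PD and 10.10 and 10.07 in PD.SHR4, where the gap was 2.0e-04 log2 units. Cyp4b1, a lung form, had 0.21 ± 0.17 (SE), and Cyp4x1, a brain form, had -0.11 ± 0.13 (SE) and was dimmer than the lower quartile on all 5 arrays.

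The fatty acid omega-hydroxylases of the Cyp4a subfamily, known targets of Ppara, had no probe set with a single listed symbol. The annotation repeats the symbol Cyp4a1 for 1 probe set, under a pair of gene IDs of which 1 is in the RefSeq table. It was kept out of the 32 for that reason. It measured 10.49, 10.39 and 10.85 in PD and 11.65 and 11.80 in PD.SHR4. The strains were clearly apart, with a log2 difference of 1.15 ± 0.17 (SE; limma adjusted p = 0.0565). The probe set assigned jointly to Cyp4a2 and Cyp4a3 had 0.45 ± 0.11 (SE; limma adjusted p = 0.169), and that assigned jointly to Cyp4a8 and Cyp4x1 had -0.81 ± 0.27 (SE; limma adjusted p = 0.268). In all, 9 probe sets of these families carried more than 1 entry and none of them passed. Their log2 differences were above 0 in 5 and below 0 in 4. Those assigned jointly to Cyp2a1 and Cyp2a2 and to Cyp2b12 and Cyp2b15 had 0.33 ± 0.17 and -0.13 ± 0.16 (SE).

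**Figure D3:**
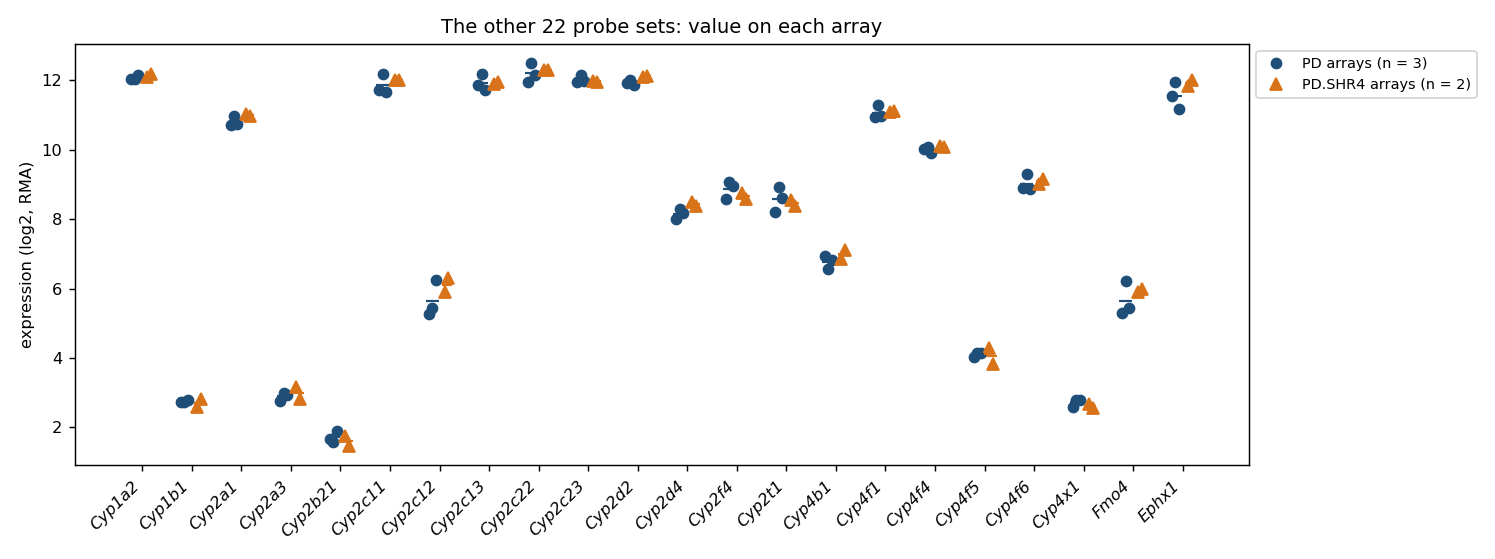
Log2 expression of the other 22 probe sets, with each PD array as a circle (n = 3), each PD.SHR4 array as a triangle (n = 2) and strain means as bars. In 18 of the 22 the strains overlap, and in Cyp2a1, Cyp2d2, Cyp2d4 and Cyp4f4 both triangles lie above the circles by a small margin.

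The precision of the arrays sets what the 31 members short of the threshold can show. For 25 of the 32 the 95% interval of the log2 difference lay within -1 to 1, as it did for 7550 of all 8797 probe sets. A doubling or a fall of the same size was outside these intervals, which measure only the spread between arrays of pooled cDNA. Of the 25, Cyp1b1, Cyp2b21 and Cyp4x1 were dimmer than the lower quartile on all 5 arrays, so their intervals say little about a change. The 7 with wider or further intervals were Cyp2j4, Cyp3a2, Cyp3a18, Cyp3a23-3a1, Ephx2, Fmo1 and Cyp2c12.

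Genes that serve or control these enzymes were taken from 3 lists. These were electron donors and haem supply, receptors and transcription factors, and the clock-driven PAR bZIP factors with the repressor Nfil3. Of 46 listed genes 35 were measured, 3 rose, 2 fell and 30 did not pass, beside 0.932% of all probe sets that passed. Their median log2 difference was -0.0015, with 17 above 0 and 18 below. Without PD array 1, 2 or 3 the calls were 2, 3 and 1, and without either PD.SHR4 array limma made 0, with 11 genes at an unadjusted p under 0.05 each time.

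Por, the reductase that supplies electrons to every microsomal P450, measured 8.49, 8.41 and 8.70 in PD and 10.33 and 10.44 in PD.SHR4. It rose 3.60-fold, with a log2 difference of 1.85 ± 0.14 (SE; limma adjusted p = 0.0100). It did not pass without PD.SHR4 array 1 or 2 (limma adjusted p = 0.111 and 0.181; range over the 11 fits 0.00158 to 0.181). Cyb5a, the microsomal cytochrome b5, had 0.20 ± 0.13 (SE), and Cyb5b, the mitochondrial form, -0.63 ± 0.21 (SE; limma adjusted p = 0.270). Hmox1, which breaks down haem, fell from 7.80, 7.57 and 7.86 in PD to 6.82 and 6.74 in PD.SHR4, a log2 difference of -0.97 ± 0.14 (SE; limma adjusted p = 0.0489), and did not pass in 7 of the 11 alternative fits (limma adjusted p 0.00485 to 0.378 over all 11).

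Nr1i3, the receptor CAR, rose from 5.93, 6.57 and 6.03 in PD to 7.91 and 8.12 in PD.SHR4 (log2 difference 1.84 ± 0.22 SE; limma adjusted p = 0.0392). Nr1i2, the receptor PXR, measured 8.57, 8.35 and 8.22 in PD and 9.04 and 9.11 in PD.SHR4, a log2 difference of 0.70 ± 0.14 (SE; limma adjusted p = 0.105). Ppara measured 7.23, 7.71 and 6.70 in PD and 8.98 and 9.42 in PD.SHR4 (1.99 ± 0.31 SE; limma adjusted p = 0.0606). It passed in 6 of the 11 alternative fits, 1 of them the replicate block, where PD array 3 drops out (limma adjusted p = 0.00261). Ppara did not pass without PD array 1, 2 or 3 (limma adjusted p = 0.122, 0.0510 and 0.117). For all 3 receptors the PD.SHR4 arrays were above all PD arrays. Of the 24 measured receptors and transcription factors this held for 9 (14.8% of all probe sets), and 7 had PD.SHR4 arrays below all PD arrays (17.1%). Ahr, in contrast, overlapped and had -0.22 ± 0.24 (SE), and Hnf4a, a general driver of hepatocyte genes, had 0.12 ± 0.11 (SE). The 2 factors Foxa3 and Onecut1, which help set hepatocyte gene expression, had 0.95 ± 0.20 and -0.89 ± 0.19 (SE; limma adjusted p = 0.106 and 0.113). Ahr and Hnf4a, and Rxra in the plot of these genes, were chosen after their values were seen. The call of Nr1i3 was lost without PD array 1 or 3 (limma adjusted p = 0.0771 and 0.117) and without either PD.SHR4 array (0.248 and 0.373), in a range of 0.00290 to 0.373 over the 11 fits.

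Among the PAR bZIP factors, Dbp rose (4.01 ± 0.54 SE; limma adjusted p = 0.0457) and Tef had 1.28 ± 0.23 (SE; limma adjusted p = 0.0784). Dbp measured 7.19, 5.70 and 5.34 on PD arrays 1, 2 and 3 and 10.00 and 10.16 in PD.SHR4. Its standard deviation within PD was 0.98, beside a median of 0.19 over the 35 partner genes. Nfil3, listed with these factors as a repressor at the same sites, fell (-1.54 ± 0.20 SE; limma adjusted p = 0.0414). Dbp did not pass without PD array 2 or 3 (limma adjusted p = 0.0836 and 0.106) or either PD.SHR4 array (0.265 and 0.373), or after quantile normalisation was repeated (0.0528; range over the 11 fits 7.31e-04 to 0.373), and Nfil3 did not pass when any 1 of the 5 arrays was left out (limma adjusted p 0.0754 to 0.294, and from 0.00759 over the 11 fits). The part of any of these genes in the values of the 32 enzymes was not tested.

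**Figure D4:**
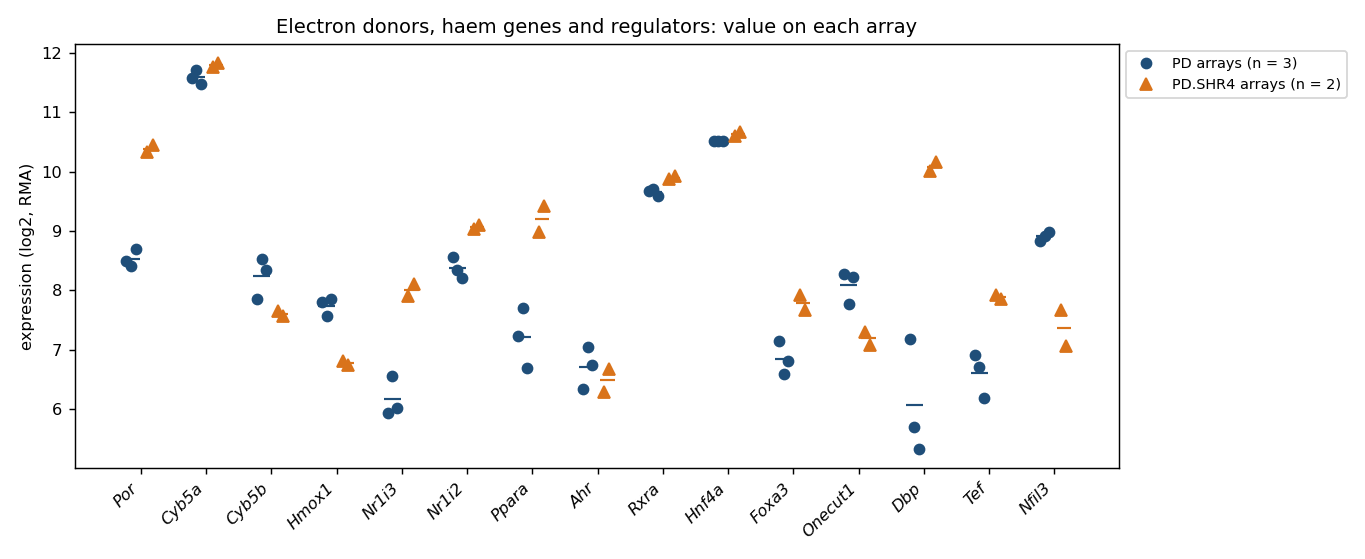
Log2 expression of 15 genes that supply or regulate the enzymes, with each PD array as a circle (n = 3), each PD.SHR4 array as a triangle (n = 2) and strain means as bars. Por, Nr1i3 and Dbp rose, at 1.85, 1.84 and 4.01 log2 units, and Hmox1 and Nfil3 fell, while Cyb5a and Hnf4a differed by 0.20 and 0.12.

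Markers of where in the lobule hepatocytes lie and of other liver cells were read beside these values. Of the 10 genes listed as markers of hepatocytes around the central vein 6 were measured and none passed, with 3 above 0 and 3 below. Slc1a2, a glutamate transporter, had 1.28 ± 0.22 (SE; limma adjusted p = 0.0708) and Rhbg, an ammonia transporter, 0.65 ± 0.21 (SE). Rgn had -0.21 ± 0.14 and Axin2 -0.15 ± 0.13 (SE). The median of the 6 was 0.020, and their summed level ran from 12.46 to 12.74 in PD and 12.55 to 12.56 in PD.SHR4. A summed level is the log2 of the sum of the unlogged values of a list, so the brightest genes weigh most. Of 10 periportal markers 9 were measured and none passed, with 7 above 0 and 2 below and a median of 0.14. PD.SHR4 arrays were above all PD arrays in 5 of the 9 (14.8% of all probe sets) and below in 1 (17.1%). The summed level of the 9 ran from 14.47 to 14.53 in PD and 14.56 to 14.63 in PD.SHR4, without overlap. The hepatocyte genes Alb, Ttr, Serpina1 and Hnf4a, 4 of 6 listed, were bright in both strains, with a median difference of 0.050 and summed levels of 14.65 to 14.73 in PD and 14.74 in both PD.SHR4 arrays.

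Markers of other cell types had mostly values below 0, and none passed. The 3 measured lymphocyte genes of 6 listed (Cd3d, Cd8a and Nkg7) had a median of -0.44, with summed levels of 6.32 to 6.38 in PD and 5.79 to 6.01 in PD.SHR4. The 3 Kupffer and macrophage genes of 7 listed had a median of -0.22 (summed levels 11.37 to 11.58 and 11.25 to 11.28). They were Adgre1 at -0.71 ± 0.16, Cd14 at -0.22 ± 0.14 and Clec4f at -0.079 ± 0.13 (SE), the last with overlapping arrays. The 5 stellate cell and fibroblast genes of 6 listed had a median of -0.46 (9.34 to 9.83 and 9.15 to 9.17). Of the cholangiocyte markers 2 of 4 were measured, Krt19 at 0.50 ± 0.18 (SE) and Epcam at -0.23 ± 0.22 (SE), and of the erythroid markers 1 of 4, Hbb-b1, at -0.66 ± 0.16 (SE). Of the 5 endothelial markers 0 had a probe set with 1 symbol. No marker was at 0, and of all measured markers only Cd3d was under the lower quartile of any array, at 2.72 on both PD.SHR4 arrays. In whole tissue, fewer cells of a type and less RNA per cell cannot be told apart, and the part of cell makeup in the values of the 32 enzymes was not tested.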

How the data were processed

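Liver RNA of 2 strains was measured on 5 Affymetrix rat exon arrays (3 PD, 2 PD.SHR4). The deposited values are log2 expression values per probe set that the authors computed, per the labels, by RMA in Expression Console as a core-gene analysis; RMA and Partek are the tools in the submitters' processing notes. RMA includes quantile normalisation, but the medians of the deposited arrays still ran from 5.21 (PD array 1) to 5.38 (PD array 2), and there are no detection calls. No version or genome build was given in the sources used here.

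Probe sets were named from the platform annotation: 7603 had 1 symbol, 409 several and 785 none. The comparison, PD.SHR4 against PD, used lmFit and eBayes of limma 3.58.1 (R 4.3.3, two-sided, no covariates, all 5 arrays) with Benjamini-Hochberg adjustment over 8797 probe sets. The fit was tested on simulated data. The number of arrays limits the precision. Promoter sequences are from RefSeq (GRCr8), and the promoter table used here held 28 of the 32 genes.

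The members, the lists and the tests were chosen with earlier results of these data known, and the 5 motifs after the fit. All members may be named; of each list, genes past the threshold and up to 4 more by smallest p. Of 6 listed aryl hydrocarbon receptor targets that are not P450s, 3 were measured and none passed (median -0.23). The fit was repeated without each array in turn, with the replicate number as a block, with an intensity trend and robust shrinkage, without the dimmest 25% of probe sets, after quantile normalisation or median centring of the arrays, with array weights and with a 1.5-fold limit.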

Additional observations from a re-analysis of the deposited data

How the results depend on the processing

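The count over all probe sets was 82. It was 163 with the replicate number as a block, 151 with an intensity trend and robust shrinkage, 149 without the dimmest 25%, 819 with array weights and 0 to 55 when an array was left out. The count of the 32 members was 1 and always upward: 3 with the replicate block (Cyp2j4, Cyp3a2 and Ephx2), 4 with the trend (these and Cyp2e1), 3 without the dimmest 25%, 2 after quantile normalisation or median centring (Cyp2j4 and Ephx2) and 10 with array weights. It was 0 to 1 when an array was left out, where limma gave 6 to 15 members at an unadjusted p under 0.05; a lone PD.SHR4 array was assumed to vary like PD. The count of the 35 partner genes was 5, 13 with array weights and 0 to 3 when an array was left out. The 1.5-fold limit changed no count. The members' median of 0.19 stayed between 0.13 and 0.25 in the 11 other fits.

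The labels share only replicate numbers, and same-numbered arrays deviated together weakly (r = 0.050 and 0.082 over all probe sets), so the numbers were not taken as pairs. The cause of these changes was not tested.

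Members near 0 changed sign, none of them past the threshold. With array weights Cyp1a2 was -0.0043 and Cyp2c13 0.17, with the block Cyp4f1 was -0.024 and Cyp4f6 -0.0065, with median centring Cyp1b1 was 0.0085, Cyp2c13 0.051 and Cyp4f5 0.0080, and after quantile normalisation Cyp2c13 was 0.041. Leaving out an array gave -0.16 to 0.074 for Cyp1b1, -0.080 to 0.26 for Cyp2a3, -0.26 to 0.034 for Cyp2b21, -0.11 to 0.13 for Cyp2c13, -0.034 to 0.23 for Cyp2c22, -0.30 to 0.065 for Cyp2t1, -0.039 to 0.14 for Cyp4f1, -0.27 to 0.18 for Cyp4f5 and -0.0065 to 0.21 for Cyp4f6.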
